A study of Gasterosteus aculeatus with 242 samples.

Results

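The gene ENSGACG00000017329 and the 39 genes whose brain level followed it most closely from fish to fish are described here in juvenile threespine sticklebacks (Gasterosteus aculeatus). The 40 genes came from 11023 genes with a mean of at least 2 CPM (counts scaled to the same total in every library), out of 22456 gene identifiers in the deposited table. ENSGACG00000017329 is called the lead gene below. By edgeR, though not by DESeq2 or limma-voom, it has the lowest p among genes higher in left than in right brain tissue. The other members were selected on measured values, as the 39 genes with the highest positive Spearman correlation with it over all fish, after the mean of each library plate was removed from log2(CPM + 1). The last gene inside this limit was ENSGACG00000008815, with a correlation of 0.238 and a mean of 311 CPM, and the first outside was ENSGACG00000013888, with 0.236 and 38.1 CPM. The limit thus cuts through a gradual slope, whereas the first members stand well apart from it.

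The study asked how care by the father shapes brain expression in offspring and their response to a threatening new place. Offspring of wild-caught Putah Creek fathers, in a half-sib design, were raised by the father (Day 10 in the labels) or by hand (orphaned, Day 0), in 8 families each. At 6 to 8 months of age, before maturity, open-field fish of both kinds explored a pool for 10 minutes, met a moving sculpin model, and were sampled 60 minutes after it, whereas baseline fish were full siblings from the home tank, sampled within 30 minutes of their partner. RNA came from 1 side of each brain, left or right, so the sides are compared between fish and never within a brain. Of 242 libraries, 1 was left out. The rest held 58 baseline and 61 open-field fish with a left side, and 63 baseline and 59 open-field fish with a right side. Father-reared fish numbered 57 at baseline and 61 after the open field, and hand-reared fish 64 and 59. Fish were sexed by a DNA marker, with 51 females and 70 males at baseline and 67 females and 53 males after the open field. Pool, model and waiting time were never applied apart, so their parts cannot be told apart.

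Threespine stickleback fathers guard the nest and retrieve straying fry, without help from the mother. In fishes the best described left-right difference of the brain lies in the epithalamus, the roof of the diencephalon that holds the habenulae and the pineal complex. In a piece of brain that holds many cell types, the level of a transcript depends on how much of each type the piece holds and on how much RNA each cell makes. For every result given here, fewer cells of a type and less RNA per cell cannot be told apart. The files give Ensembl identifiers alone, and none of the 22456 matched the RefSeq table of 52177 genes at hand, so no member is named, located or given a role, and lists of marker genes for pituitary, pineal, habenula, blood or other tissues could not be applied. Whether tissue of that kind moved with the members was not tested.

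Libraries held 706544 to 1529047 counts, with a median of 1007692, and the median fish had a count for 13611 genes. Median totals of the groups of side, sex, rearing and exposure lay between 994629 and 1034984. The library left out held 2055 counts. At the median depth a count of 0 allows up to 2.98 CPM (3 counts), which covers counting error only. Across members, the correlation of the level with the library total ran from -0.18 to 0.08.

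The lead gene was silent or near-silent in many fish and well detected in others. ENSGACG00000017329 had a count in 49.4% of all fish, lay at 8 CPM or more in 88 and at 32 CPM or more in 25, and reached 67.9 CPM. Its mean was 10.1 ± 14.9 CPM (SD over all fish), so the spread between fish was larger than the mean. Both kinds of fish occurred in all 16 families, which held 4 to 12 fish with a count and had family means from 5.65 to 18.6 CPM. They occurred on all 3 plates too, where 43 of 90, 45 of 91 and 31 of 60 fish had a count.

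More of the lead gene was found on the left. There, ENSGACG00000017329 had a count in 73 fish (61.3%), with a median of 7.06, a highest value of 67.9 and a mean of 14.3 ± 16.6 CPM. On the right, 46 fish (37.7%) had a count, with a median of 0, a highest value of 64.5 and a mean of 5.95 ± 11.7 CPM. The ranges overlap almost wholly. The share of fish with a count was 1.63 times as high on the left as on the right, and among fish with a count the mean was 1.48 times as high, at 23.3 ± 15.5 CPM against 15.8 ± 14.4 CPM. The difference between sides thus lay both in how many fish had a count and in the level of those that did. In 14 of 16 families the left mean exceeded the right, the exceptions being families 07 and 31. The fitted difference, right minus left, was -1.43 on the log2 scale (SE 0.27, 2.70-fold, edgeR quasi-likelihood test, adjusted p = 0.0018), and it ran from -1.27 to -1.72 within the 3 plates, none of which passed the threshold alone. DESeq2 gave a like difference of -1.46 (SE 0.45) and did not call the gene (adjusted p = 0.18). The SE of edgeR was computed from its test statistic and that of DESeq2 came from its own fit, so their sizes are not comparable. This contrast chose the lead gene, and is given as a description.

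**Figure D1:**
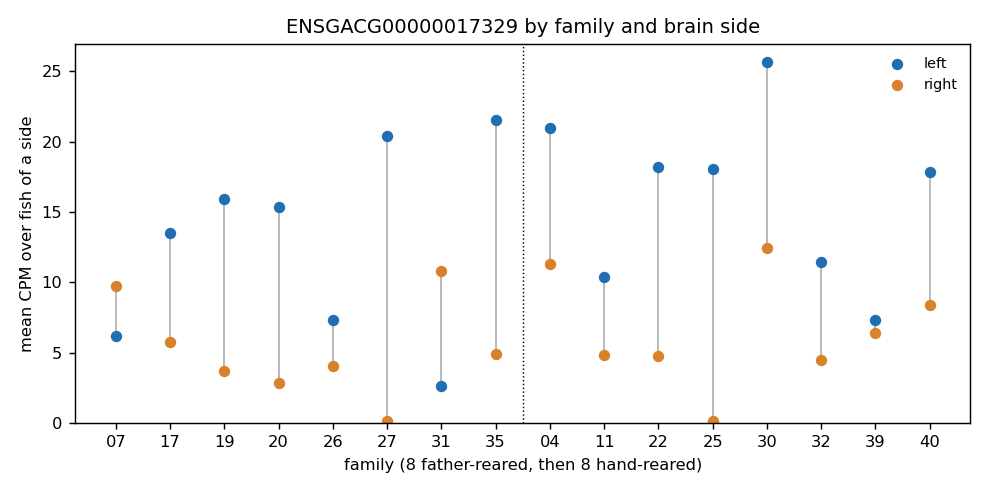
Mean CPM of ENSGACG00000017329 over the left-side fish (blue) and the right-side fish (orange) of each of the 16 families, 8 father-reared and then 8 hand-reared, with a grey line joining the sides of a family. The left mean is above the right in 14 of 16 families, and families 07 and 31 lie the other way.

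By side and exposure, left baseline fish stood highest. Of these, 43 of 58 had a count of ENSGACG00000017329, with a median of 15.7 and a mean of 17.7 ± 15.9 CPM. Open-field fish with a left side had a count in 30 of 61, with a median of 0 and a mean of 11.1 ± 16.8 CPM. On the right, 26 of 63 baseline fish had a count and a mean of 7.03 ± 13.6 CPM, and 20 of 59 open-field fish had a count and a mean of 4.79 ± 9.15 CPM. The left baseline group is the 1 group of these 4 in which most fish carried the transcript. The difference between open-field and baseline fish was -0.60 on the log2 scale (SE 0.27, 95% interval -1.13 to -0.07) and was not called by edgeR (adjusted p = 0.70). limma-voom gave -1.27 and called it (adjusted p = 0.032). The exposure difference did not differ detectably between sides (interaction 0.07, SE 0.63, adjusted p = 1.00).

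**Figure D2:**
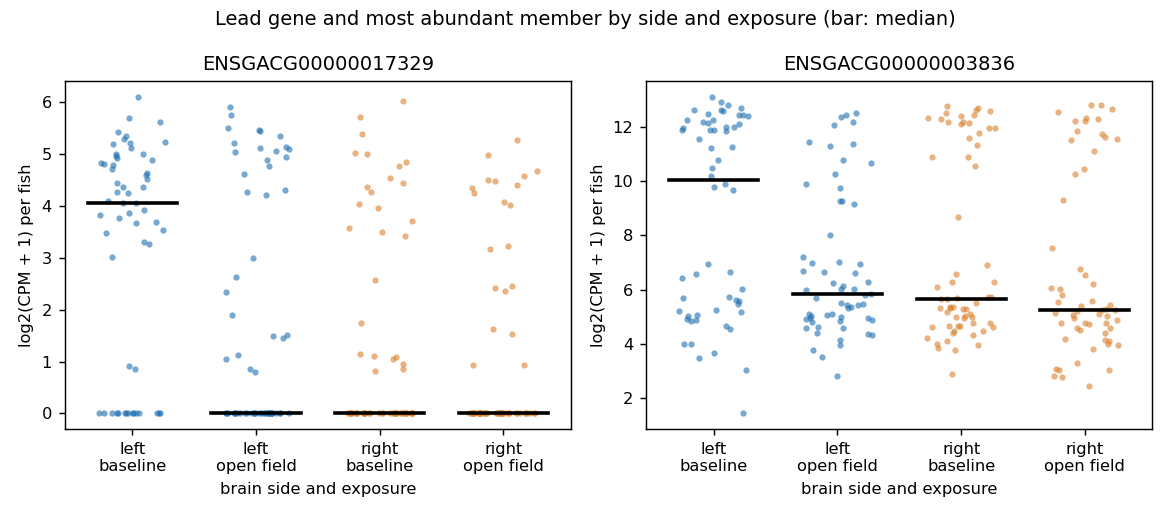
Level per fish, as log2(CPM + 1), of ENSGACG00000017329 (left panel) and of ENSGACG00000003836, the most abundant member (right panel), in the 4 groups of side and exposure, with each point a fish and each bar the group median. Each gene splits the fish into a low and a high cloud, and the median lies in the high cloud in left baseline fish and in the low cloud in the other 3 groups.

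The members form a small tight core and a loose remainder. The correlation with the lead gene was 0.77 for ENSGACG00000006256, 0.67 for ENSGACG00000012301, 0.60 for ENSGACG00000015171, 0.56 for ENSGACG00000003836 and 0.51 for ENSGACG00000017857, over all fish used. In all, 6 genes had a correlation above 0.5, 11 above 0.4 and 23 above 0.3. No gene of the 11023 lay below -0.3, and the median over all of them was 0.0012. Since the rule picked the highest values, these are a description. All 39 correlations were above 0 in left fish alone, in right fish alone and on each plate alone, with medians of 0.29 on the left, 0.35 on the right and 0.31, 0.36 and 0.39 on the plates. The fish of a side or plate are among those the rule used.

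Among themselves, the members correlated less than the core did. Over their 780 pairs the median correlation was 0.21, the range ran from -0.12 to 0.77, and 17 pairs lay below 0. Average-linkage clustering, with members joined down to a mean correlation of 0.5, gave 3 subgroups of 4, 5 and 5 genes and left 26 members single. Subgroup 1 holds the lead gene, ENSGACG00000006256, ENSGACG00000012301 and ENSGACG00000015171, with pair correlations of 0.48 to 0.77. Subgroup 2 holds ENSGACG00000003836, ENSGACG00000018966, ENSGACG00000015931 and a further pair of genes, with pair correlations of 0.46 to 0.66. Subgroup 3 holds 5 genes of steadier level, with means from 33.6 to 298 CPM and pair correlations of 0.46 to 0.65. The median correlation between genes of subgroups 1 and 2 was 0.35, between 1 and 3 it was 0.27, and between 2 and 3 it was 0.40, so that subgroup 2 lay closer to subgroup 3 than to the lead gene's own group.

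**Figure D3:**
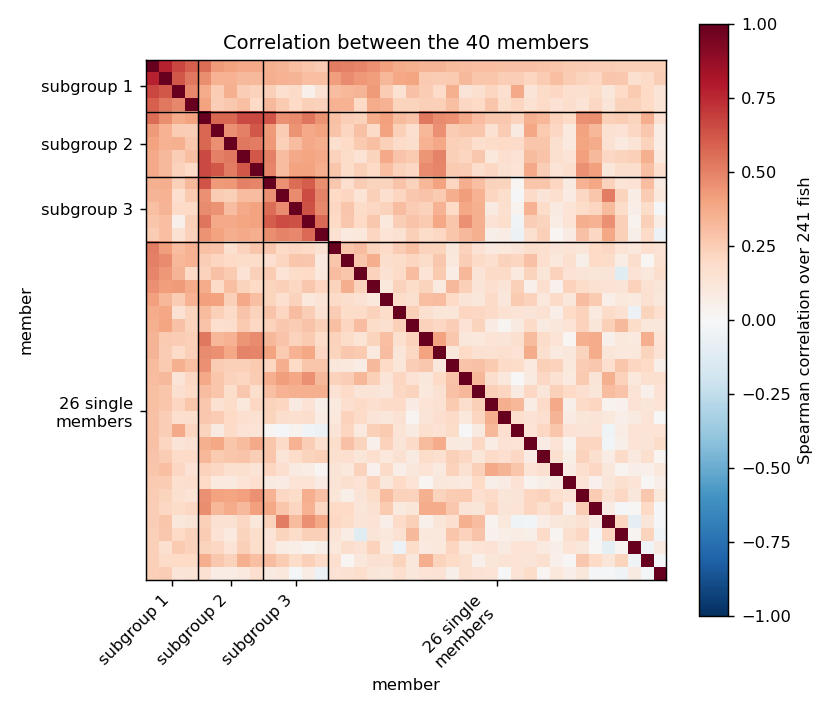
Spearman correlation over all fish used for each pair of the 40 members, from blue (negative) to red (positive), ordered by subgroup and then by correlation with the lead gene, with black lines between subgroups. The 3 subgroups form dark blocks on the diagonal, and most other pairs are pale, around the median of 0.21.

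The highest values of the core overlapped in part. The same fish, a hand-reared open-field female from family 22 with a left side, held the highest value of ENSGACG00000006256 (79.5 CPM), of ENSGACG00000012301 (44.5 CPM) and of ENSGACG00000015171 (45.3 CPM), with 59 CPM of the lead gene ENSGACG00000017329. In that fish the abundant member ENSGACG00000003836 lay at 5.99 CPM, far below its median of 52.4 CPM over all fish. Of the 20 fish highest for the lead gene, 10 were among the 20 highest for ENSGACG00000006256, 6 for ENSGACG00000012301 and 7 for ENSGACG00000015171, and 2 for ENSGACG00000003836. Among the other core genes 6 or 7 of the 20 highest were shared in each pair, so most of the highest fish differed there too. With ENSGACG00000003836, ENSGACG00000006256 shared 2, ENSGACG00000012301 shared 0 and ENSGACG00000015171 shared 4.

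Levels within the core were low, and 1 of its genes was found in every fish used. ENSGACG00000006256 had a count in 73.4% of fish and a mean of 5.47 ± 8.49 CPM. ENSGACG00000012301 had a count in 66.8% of fish and a mean of 4.23 ± 5.84 CPM. ENSGACG00000015171 had a count in every fish used, from 1.91 to 45.3 with a median of 11.8 and a mean of 12.7 ± 6.67 CPM. A fish with 0 counts of the lead gene therefore still had ENSGACG00000015171. Tags are counted near the transcript end, so CPM here does not grow with gene length.

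All 4 core genes were higher on the left, and 3 of them were called. ENSGACG00000006256 had a median of 5.06 and a mean of 7.53 ± 9.76 CPM on the left against a median of 1.00 and a mean of 3.46 ± 6.47 CPM on the right (log2 -1.17, SE 0.23, edgeR adjusted p = 0.0018). ENSGACG00000015171 had 14.4 ± 6.90 CPM on the left and 11.1 ± 6.03 CPM on the right (log2 -0.41, SE 0.09, adjusted p = 0.019). ENSGACG00000012301 had 5.26 ± 6.20 and 3.21 ± 5.30 CPM (log2 -0.85, SE 0.21, adjusted p = 0.067). With the lead gene, 3 of 40 members were called higher on the left, and these were the same 3 genes of all 11023 called in that direction (0.0272%). Each of the 4 differences was negative on each of the 3 plates, and none passed the threshold on a plate alone. Since the rule used this contrast, the count carries no support of its own.

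The side difference was largest in the core. Over the 40 members, 37 were lower on the right, with a median log2 difference of -0.12, against 0.0003 over all genes tested. The lead gene was chosen on the difference between sides, and the others for following it over the same fish. A shared sign is therefore built into the choice, and these values are a description. In subgroup 1 the differences ran from -1.43 to -0.41, in subgroup 3 from -0.17 to -0.11, and among the 26 single members from -0.65 to 0.03. ENSGACG00000017857, the fifth gene by correlation and a single member, had 2.49 ± 3.47 CPM on the left and 1.63 ± 2.25 CPM on the right (log2 -0.65, SE 0.19, adjusted p = 0.16). In subgroup 2, whose genes also followed the lead gene, the fitted differences ran from -0.13 to 0.03. For ENSGACG00000003836 that value depended on the plate and the method: it was 0.54, 0.56 and -2.69 on plates 1, 2 and 3, and -0.73 with limma-voom, and none of these was called. The subgroup's correlation with the lead gene was present on each side taken alone, at 0.29 to 0.49 on the left and 0.44 to 0.56 on the right.

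ENSGACG00000003836, of subgroup 2, had the widest range of CPM of all members and the highest mean. Its level ran from 1.68 to 8937 CPM, with a median of 52.4 and a mean of 1453 ± 2249 CPM, and at its highest it made up 0.894% of a library. The fish fell into a low and a high cloud: 86 lay at 500 CPM or more, 11 between 100 and 500 CPM, and the rest below 100 CPM, with both marks set after the values were seen. The lead gene had a count in 69 of the 86 high fish, in 6 of the 11 between and in 44 of the low fish. The relation is loose in both directions, since 17 fish of the high cloud had no lead-gene count and 24 fish with 8 CPM or more of the lead gene lay in the low cloud.

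**Figure D4:**
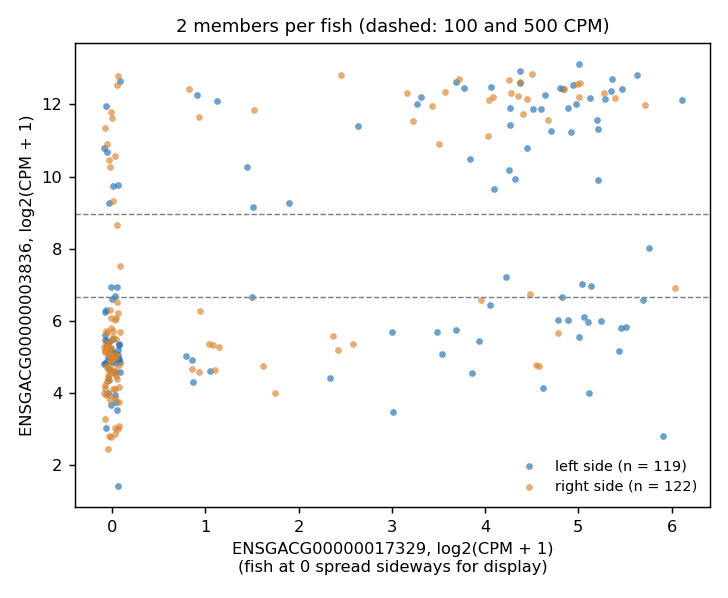
Level of ENSGACG00000017329 (horizontal) and of ENSGACG00000003836 (vertical) per fish, both as log2(CPM + 1), for left (blue) and right (orange) sides. Fish at 0 of the lead gene are spread sideways for display, the dashed lines mark 100 and 500 CPM, and the upper cloud of 86 fish holds 69 with a count of the lead gene.

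High fish of this abundant gene were found in every group. ENSGACG00000003836 was at 500 CPM or more in 53 baseline fish (43.8%) and 33 open-field fish (27.5%), in 48 left (40.3%) and 38 right fish (31.1%), in 39 females (33.1%) and 47 males (38.2%), and in 37 father-reared (31.4%) and 49 hand-reared fish (39.8%). On the 3 plates it was 31 of 90, 34 of 91 and 21 of 60 fish. Left baseline fish had a median of 1058 and a mean of 2398 ± 2647 CPM, and open-field fish with a left side a median of 56.1 and a mean of 730 ± 1496 CPM. On the right, baseline fish had a median of 49.6 and a mean of 1530 ± 2306 CPM, and open-field fish a median of 37.4 and a mean of 1190 ± 2125 CPM. None of these contrasts was called: open field minus baseline was -1.05 on the log2 scale (SE 0.42, 95% interval -1.88 to -0.22, edgeR adjusted p = 0.60), and right minus left was -0.13 (SE 0.42, adjusted p = 0.97). Within sides, the exposure difference was -2.18 (SE 0.61, adjusted p = 0.12) on the left and 0.38 (SE 0.69, adjusted p = 1.00) on the right. On the right the fitted sign is opposite to that of the mean and median above, which were lower in open-field fish. No rise on the right is therefore read from it. The interaction of side and exposure was 2.29 (SE 0.83), with an unadjusted p of 0.0065 and an adjusted p of 1.00.

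After the open field, 2 of 40 members were lower and 0 were higher (edgeR, adjusted p under 0.05), both from subgroup 2. The share called among all genes was 0.0544% lower and 0.408% higher. The members were chosen to follow the lead gene, itself lower in open-field fish, so this count carries no support of its own. ENSGACG00000018966 had a count in 96 baseline fish (79.3%), from 0 to 10.5 with a median of 1.84 and a mean of 2.67 ± 2.71 CPM. After the open field it had a count in 78 fish (65%), from 0 to 6.71 with a median of 0.976 and a mean of 1.49 ± 1.68 CPM. The ranges overlap, and the level was 1.72-fold lower (log2 -0.78, SE 0.19, adjusted p = 0.0146). ENSGACG00000015931 ran from 0 to 18.8 with a median of 4.74 and a mean of 5.55 ± 3.53 CPM at baseline. After the open field it ran from 0 to 14.2 with a median of 3.27 and a mean of 3.95 ± 3.21 CPM. Its ranges overlap too, and it was 1.41-fold lower (log2 -0.49, SE 0.13, adjusted p = 0.032).

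Both genes were low in level, with 67 fish at 0 for ENSGACG00000018966 and 7 for ENSGACG00000015931. Their calls rest on all plates together. Within plates 1, 2 and 3, ENSGACG00000018966 differed by -0.43, -1.23 and -0.50 on the log2 scale and ENSGACG00000015931 by -0.73, -0.46 and -0.39, with no plate past the threshold alone. By side, ENSGACG00000018966 differed by -1.06 on the left and -0.48 on the right, and ENSGACG00000015931 by -0.52 and -0.50. Both were also called by DESeq2 (adjusted p = 0.019 and 0.017) and by limma-voom (adjusted p = 0.032 and 0.0063). Neither was called in left sides alone (edgeR adjusted p = 0.050 and 0.41) or in right sides alone. With the sibling number within family as a block in place of family, ENSGACG00000018966 was no longer called (adjusted p = 0.23), and without a block for family ENSGACG00000015931 was not (adjusted p = 0.063). In baseline fish, ENSGACG00000018966 averaged 2.83 CPM on the left and 2.53 on the right, and ENSGACG00000015931 averaged 5.62 and 5.50.

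The other members leaned the same way without passing the threshold. In 38 of 40 members the open-field difference was negative, with a median of -0.11 on the log2 scale, against -0.002 over all genes. Since every member was chosen to follow the lead gene over the same fish, and the lead gene was lower in open-field fish by -0.60, a shared sign is built into the choice. At an unadjusted p under 0.05 there were 13 members, and the share of all genes was 5.94%. For the same reason, this count carries no support of its own. The 5 genes of subgroup 2 differed by -1.05 to -0.36 and the 4 of subgroup 1 by -0.64 to -0.22. Subgroup 3 differed little, at -0.11 to -0.07. The 26 single members had a median of -0.07 but ran from -0.42 to 0.09, and 4 of them had an unadjusted p under 0.05 (edgeR).

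**Figure D5:**
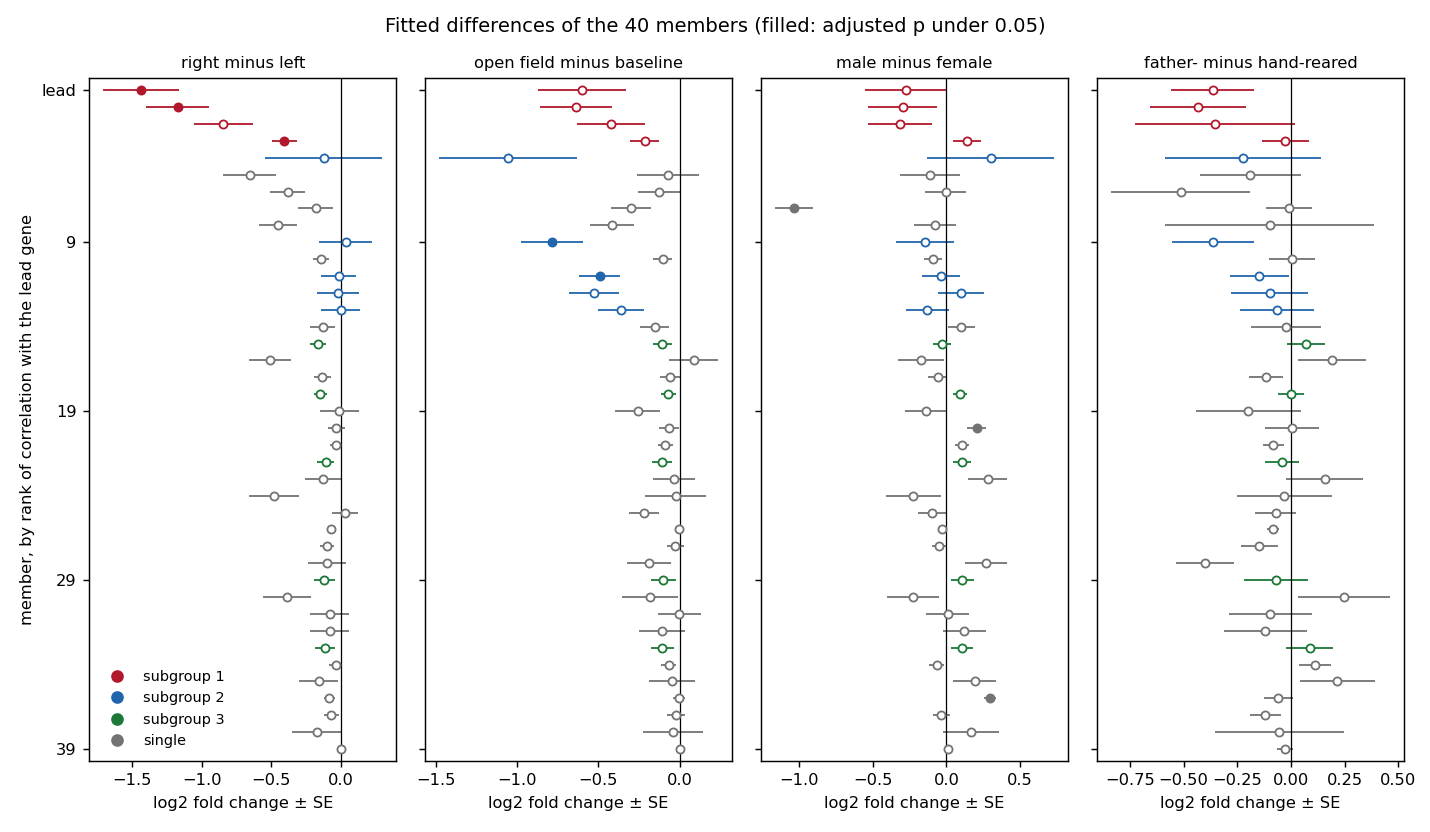
Fitted log2 difference with its SE for the 40 members, from the lead gene at the top down to rank 39, in the contrasts of side, exposure, sex and rearing, coloured by subgroup, with filled points at an adjusted p under 0.05. The side differences are largest in subgroup 1, the 2 called exposure differences lie in subgroup 2, and the 3 called sex differences lie among the 26 single members.

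Members were not called between the sexes more often than genes at large. Of 40 members, 2 were higher in males and 1 in females, where 6.68% of all genes were higher in males and 4.42% in females. The 3 called were among the 26 single members, which make up most of the list. ENSGACG00000005752 ran from 0 to 57.3 with a median of 14.5 and a mean of 15.6 ± 10.4 CPM in females, and from 0 to 28.7 with a median of 6.61 and a mean of 7.83 ± 5.71 CPM in males. The female level was 2.05-fold that of males (log2, male minus female, -1.03, SE 0.13, edgeR adjusted p = 2.3e-12), and the difference was called on each plate and each side alone, at -0.96 to -1.37. This gene nevertheless followed the lead gene over all fish with a correlation of 0.49. ENSGACG00000003398 ran from 106.6 to 498 with a mean of 291 ± 63.5 CPM in females, and from 230 to 606 with a mean of 357 ± 71.9 CPM in males (log2 0.30, SE 0.04, adjusted p = 4.4e-11). ENSGACG00000006819 averaged 17.3 ± 6.00 CPM in males against 14.7 ± 5.74 CPM in females (log2 0.21, SE 0.06, adjusted p = 0.018), and was not called on any plate or side alone.

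The lead gene showed no detectable sex difference. ENSGACG00000017329 had a count in 53 females (44.9%), with a mean of 10.7 ± 16.3 CPM, and in 66 males (53.7%), with a mean of 9.47 ± 13.4 CPM (log2 -0.28, SE 0.28, 95% interval -0.82 to 0.27, edgeR adjusted p = 0.68). On the left, 36 of 58 females and 37 of 61 males had a count. On the right, 17 of 60 females and 29 of 62 males did, with means of 6.05 ± 12.6 and 5.85 ± 10.7 CPM. No member was called for a side difference that depended on sex (0 of 40 by edgeR or DESeq2, where 0% of all genes were). At an unadjusted p under 0.05 there were 0 members against 4.72% of genes. The fitted interactions of the members ran from -0.33 to 1.06 on the log2 scale, so the missing calls do not show equal side differences.

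Rearing was compared between families, 8 against 8, since a whole family shared its rearing. The tests treat families as independent, and parents shared between families in the half-sib design were not modelled. No member was called, and neither was any other gene (0%) by edgeR. At an unadjusted p under 0.05 there were 2 members against 7.18% of genes. DESeq2 called 0 members as well, among 46 genes in all. ENSGACG00000017329 had a count in 53 father-reared fish (44.9%), with a mean of 8.60 ± 13.97 CPM, and in 66 hand-reared fish (53.7%), with a mean of 11.5 ± 15.7 CPM. On family sums the difference, father- minus hand-reared, was -0.36 on the log2 scale (SE 0.19, 95% interval -0.74 to 0.01, adjusted p = 0.78). The family means of its plate-centred log2(CPM + 1) were -0.24 ± 0.56 in father-reared and 0.21 ± 0.56 in hand-reared families (difference -0.45, SE 0.28, exact two-sided permutation test over 12870 assignments, p = 0.124). The difference is thus smaller than the spread between families of a group. In 30 of 40 members the rearing difference was negative, with a median of -0.07. Over all genes 50.6% were negative, with a median of -0.001. The members were chosen to follow the lead gene over the same fish. The lead gene's own difference was negative too, so the lean of the members carries no support of its own. Left sides made up an unequal part of the rearing groups, with 55 left and 63 right sides in father-reared fish and 64 and 59 in hand-reared fish. With the share of left sides in a family as a covariate, 18 of 40 differences were negative and the median was 0.0019. The lead gene's own difference in that fit was -0.42 (edgeR adjusted p = 0.72). Whether the unequal sides account for the lean of the members was not tested.

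In the lead gene, rearing and exposure were also read together, and no difference passed the threshold. In baseline fish alone the rearing difference of ENSGACG00000017329 was -0.76 on the log2 scale (SE 0.27, adjusted p = 0.44), and in open-field fish alone it was 0.24 (SE 0.32, adjusted p = 0.99). The interaction of rearing and exposure was 1.00 (SE 0.39), with an unadjusted p of 0.018 and an adjusted p of 1.00 (edgeR). Of 40 members, 0 were called for this interaction, where 0% of all genes were. At an unadjusted p under 0.05 there were 6 members, of which 3 belong to subgroup 3, and the share of all genes was 3.32%. Since the members were chosen to follow the lead gene over the same fish, this count carries no support of its own. DESeq2 called 0 members.

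The other interactions also held no called member, by edgeR or DESeq2. For side and exposure, 1 gene outside the members was called (0.00907% of genes), and 5 members had an unadjusted p under 0.05 against 3.78% of genes. For side and rearing, 0% of genes were called, and 1 member had an unadjusted p under 0.05 against 4.15% of genes. For sex and exposure, 0% of genes were called, and 2 members had an unadjusted p under 0.05 against 4.84% of genes. The members were chosen to vary together over these fish, so none of these counts carries support of its own.

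Summed over the 40 members, a fish held 1415 to 11716 CPM, with a median of 2111 CPM. Without the abundant ENSGACG00000003836 the other 39 held 1409 to 2779 CPM, with a median of 2009 CPM, so most of the range of the sum was that of 1 gene. Left fish had a median of 2236 CPM and right fish one of 1978 CPM, baseline fish 2140 and open-field fish 2070, males 2186 and females 2038, and hand-reared fish 2189 and father-reared fish 2052. All of these lie well within the range of each group.

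How many genes belong with the lead gene depended on the fish. With the correlation taken over left fish alone, 20 of the 40 were again chosen, and over right fish alone 30. Within plates it was 21, 26 and 22, within females 26 and males 29, within father-reared fish 24 and hand-reared fish 30, and within baseline fish 28 and open-field fish 29. After the means of family, side, sex, exposure and plate were removed, 33 were chosen again. The lead gene is counted in each of these numbers by construction. The other core genes were chosen in each of these, and the changes lay among the members outside the core. Clustering was not repeated within these groups, so whether the same core would form there was not tested. Each such group is a part of the fish the rule used.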

How the data were processed

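The authors deposited raw counts for each gene in every lane of every library, made with FastQC 0.11.8, STAR 2.2.3a and HTSeq 0.9.1, per the submitters' processing notes. The sources used here give no genome build, annotation, strand setting or duplicate handling, so near-identical, overlapping and antisense genes are uncertain. Libraries were 3′ tag libraries of 1 brain side, per the labels. All 1452 count columns were used, each library is the sum of its 6 lanes, and 1 library under 500000 counts was left out. Plate was read from the library name, family from the fish code.

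Genes with a mean of at least 2 CPM were tested with edgeR 4.0.16 (R 4.3.3; quasi-likelihood F-test, TMM, Benjamini-Hochberg over all genes, calls at an adjusted p under 0.05). Side, exposure, sex and their interactions were fitted with family as a block and plate as a covariate. Rearing was tested on sums of 16 families, and its interaction with exposure on 32 sums. P-values judge a difference against the spread between fish left after family, plate and the other terms, or, for rearing, between families. They do not measure how a side, sex or exposure difference varies between families. Alternatives were DESeq2 1.42.0, limma-voom 3.58.1, other scalings, filters, terms, fish and left-out families. On simulated counts for rearing on family sums, over 11023 genes, 94% of genes changed by a log2 of 1 and 70% of those changed by 0.5 were recovered, and for the interaction of side and sex 91% and 58% were. The changed genes were drawn at random from all genes tested, and no rate was taken for genes as sparse or variable as the lead gene. Genes named are the lead, the 5 closest, those at the limit, the most abundant and the called members with the largest changes. Members, lists and tests were chosen with earlier results of these data known.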

Additional observations from a re-analysis of the deposited data

Results flagged for a closer look

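In 5 of 14 checked sets of 8 family means, the gap between the highest family and the next, as a share of the whole range of the 8, passed the 95% limit of Dixon's test. Chance alone flags about 1 set in 20, but these genes were chosen to vary together, so the sets are not independent and the number of flags carries no support. ENSGACG00000012301, of the core, had a mean of 10.3 CPM in father-reared family 19 (next highest 4.05) and of 10.4 CPM in hand-reared family 39 (next highest 5.45). All 14 fish of each of these families had a count. ENSGACG00000016871, a single member named here after its values were seen, had a mean of 15.5 CPM in father-reared family 19 (next highest 7.63) and of 15.4 CPM in hand-reared family 11 (next highest 7.39). ENSGACG00000017857 had a mean of 3.50 CPM in father-reared family 26 (next highest 2.25), and there a single fish reached 29.9 CPM while the family median was 1.01 CPM. The lead gene ENSGACG00000017329 was not raised in these families: its means were 8.93 CPM in family 19, 6.93 in family 39, 7.90 in family 11 and 5.65 in family 26, within its family range of 5.65 to 18.6 CPM.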

How the results depend on the processing

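For 11 named members and the contrasts of side, exposure, sex and rearing, 60 of 688 alternative values had the opposite sign to the reported one, 30 of them in rearing, and 0 of the 60 were called. Among them, 0 alternative values of the differences called in the report changed sign. The rearing difference of ENSGACG00000017329 was 0.24 in open-field fish alone. The exposure difference of ENSGACG00000003836 was 0.38 in right sides alone, where its mean and median CPM were nonetheless lower in open-field fish. The members' median rearing difference was -0.07, against 0.07 in open-field fish alone and 0.0019 with the share of left sides as a covariate. Members called higher on the left numbered 0 on each plate alone. Members called lower after the open field numbered 0 on each plate alone, in right sides alone and with edgeR's filterByExpr, which tested 25 of 40 members and left out both called genes, and 1 (ENSGACG00000018966) without the family block. In left sides alone the 2 called were other members. With the sibling number within family as a replicate block in place of family, 1 (ENSGACG00000015931) was called. After the means of family, side, sex, exposure and plate were removed, the median correlation across genes over the sibling pairs was -0.07. Of these correlations, 0 exceeded 0.1. Removing a family's mean itself pulls such values below 0, so they cannot tell whether siblings were alike in single genes. Members called higher in males numbered 1 in either side alone and on each plate alone. Of the 40 members, 20 were chosen again in left fish alone, and 21, 26 and 22 on plates 1, 2 and 3. It was 26 in females and 24 in father-reared fish, with the lead gene always counted. The causes of these changes were not tested, though each subset holds fewer fish. Over all fish used, a limit of 5 CPM in place of 2 kept 27 of the 40, and 1 CPM kept 31. The core gene ENSGACG00000012301, with a mean of 4.23 CPM, fell below the limit of 5 CPM. Pearson correlation kept 36, and so did leaving plate means in. TMM scaling kept 38, and adding 0.25 in place of 1 before the log kept 40. Over all genes, edgeR called 4 right-higher and 3 left-higher, against 10 and 4 with DESeq2 and 8 and 7 with no filter. For rearing, DESeq2 called 45 genes higher and 1 lower, edgeR 0. Leaving out a family called no member and at most 1 gene, and the lead gene's family difference stayed between -0.62 and -0.34 over 18 alternatives. Depth limits the members under 3 CPM, where a fish's value rests on few counts.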
